A study of Mus musculus with 24 samples.

Results

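Broad H3K4me3 domains are stretches of chromatin, much longer than a usual promoter peak, in which the nucleosomes carry trimethylation of lysine 4 on histone H3. Here they were taken from the peak list of untreated IDH1 R132H cells as the peaks with an end minus start of 4000 bp or more. There were 1229 such domains among 45713 listed peaks, or 2.69% of the peaks, and they covered 6.64 Mb, or 12.1% of all listed bases. The untreated length alone chose them, so lengths are given below as a description. Nothing tested whether 4000 bp is a natural boundary. The 3 shortest domains measured 4000, 4000 and 4001 bp, and the 3 longest peaks left out fell short of the limit by 1 to 3 bp.

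H3K4me3 is placed at active start sites by the SET1 and MLL (Kmt2) methyltransferases and removed by the Kdm5 demethylases. Most promoters carry it as a short block around the start site, but at some genes it spreads far into the gene body. In other cell types such broad domains have been linked to genes of cell identity and to high, steady transcription. PU.1, encoded by Spi1, and Runx1 are DNA-binding factors that direct the formation of blood cells, PU.1 above all in myeloid cells.

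The cells were mouse bone marrow cells made to grow without end by HOXA9, a homeobox factor that blocks myeloid maturation, and they also received a vector for IDH1 R132H. Mutant IDH1 makes 2-hydroxyglutarate, which inhibits dioxygenases that need 2-oxoglutarate, among them TET enzymes and many histone demethylases. Vitamin C is a cofactor that helps such enzymes keep their iron reduced. The libraries compared were untreated IDH1 R132H cells and IDH1 R132H cells given vitamin C at 0.345 mM, with doses at 0, 24 and 48 h and a harvest at 72 h. The medium of both held IL-3, IL-6 and SCF. Cells with wild-type IDH1 were used for MeDIP only, and the region list attached to their untreated sample enters below. The labels do not say whether the cells were 1 clone or a pool, and give no harvest time for untreated cells. Each group held 1 library, so no difference between conditions has a replicate check and no test between conditions was made.

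The whole series comprised 24 samples in 24 groups, of which 18 had files used here. RNA libraries held total counts of 86804487 untreated and 111453443 with vitamin C, while the depth of the ChIP, MeDIP and bisulfite libraries is unknown from the lists. Of the blood cell markers, Ptprc had 65.1 RPKM without and 61.2 RPKM with vitamin C, and Hoxa9 at 3061.76 and 1487.43 RPKM. The B and T cell markers Cd79a, Pax5, Cd3e, Cd3d and Cd4 lay between 0 and 0.218 RPKM in both. The mast cell and basophil genes Cpa3 and Mcpt8 were at 1863 and 110 RPKM untreated and at 2488 and 140 RPKM with vitamin C, while Cma1 went from 0.359 to 14.6 RPKM and Ms4a2 from 1.23 to 5.78 RPKM. Hdc, of the same list, was at 46.6 and 60.2 RPKM. Kit, a stem cell factor receptor of progenitors and mast cells, went from 32.1 to 5.07 RPKM. Hba-a1 went from 0.135 to 4.12 RPKM. Hbb-bs stood at 339.9 and 380.0 RPKM while the erythroid factor gene Klf1 stood at 0.278 and 0.133 RPKM. How far cells of these types took part in the results below was not tested.

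The promoters of 6 domain genes serve as examples, from 2 CG pairs with PU.1 core motifs to 20 CG pairs without them. Over all domain-gene promoters the quartiles were 8 and 24 CG pairs, so the upper end of the range is not shown. Each line gives the 250 bases before the start site, 5′ to 3′ on the gene's own strand, from RefSeq promoters on GRCm38.p6, the assembly that mm10 names. Capitals mark the PU.1 core GAGGAA and the RUNX core TGTGGT, read on either strand. Mpo lies at chr11:87793534-87793783 on the plus strand, Cd53 at chr3:106790150-106790399 on the minus strand, Gpr65 at chr12:98268385-98268634 on the plus strand, Meis1 at chr11:19018970-19019219 on the minus strand, Ern1 at chr11:106487797-106488046 on the minus strand and Junb at chr8:84978749-84978998 on the minus strand.
Mpo: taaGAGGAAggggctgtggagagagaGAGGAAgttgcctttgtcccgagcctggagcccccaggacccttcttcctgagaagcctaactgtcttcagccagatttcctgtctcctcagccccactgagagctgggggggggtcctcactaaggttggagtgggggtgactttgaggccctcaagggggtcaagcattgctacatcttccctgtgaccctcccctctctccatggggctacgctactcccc
Cd53: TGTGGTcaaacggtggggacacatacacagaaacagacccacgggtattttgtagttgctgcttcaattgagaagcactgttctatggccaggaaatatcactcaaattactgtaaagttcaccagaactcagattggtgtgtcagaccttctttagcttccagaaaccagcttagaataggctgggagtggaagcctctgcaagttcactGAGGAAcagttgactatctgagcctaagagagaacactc
Gpr65: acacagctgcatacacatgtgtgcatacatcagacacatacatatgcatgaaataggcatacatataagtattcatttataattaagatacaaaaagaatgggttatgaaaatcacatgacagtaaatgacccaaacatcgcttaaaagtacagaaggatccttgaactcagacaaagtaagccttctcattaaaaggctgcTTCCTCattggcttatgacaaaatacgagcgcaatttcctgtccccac
Meis1: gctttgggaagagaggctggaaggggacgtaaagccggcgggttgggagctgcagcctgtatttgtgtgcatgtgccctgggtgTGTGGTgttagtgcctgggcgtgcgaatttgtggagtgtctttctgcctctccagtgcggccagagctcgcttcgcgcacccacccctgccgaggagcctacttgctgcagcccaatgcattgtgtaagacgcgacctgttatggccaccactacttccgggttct
Ern1: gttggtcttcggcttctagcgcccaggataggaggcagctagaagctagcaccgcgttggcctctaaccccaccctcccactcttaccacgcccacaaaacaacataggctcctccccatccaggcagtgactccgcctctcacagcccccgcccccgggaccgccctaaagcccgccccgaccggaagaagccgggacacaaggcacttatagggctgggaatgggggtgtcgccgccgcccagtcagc
Junb: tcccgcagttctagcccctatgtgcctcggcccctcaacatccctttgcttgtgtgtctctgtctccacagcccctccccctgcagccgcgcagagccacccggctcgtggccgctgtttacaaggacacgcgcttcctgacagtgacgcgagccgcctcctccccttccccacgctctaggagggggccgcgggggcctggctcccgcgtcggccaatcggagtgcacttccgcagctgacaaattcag

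Mpo encodes the myeloperoxidase of neutrophil granules, and its window held 2 PU.1 cores and 2 CG pairs. The PU.1 peak over it had a score of 27.9 in the untreated list and 6.25 in the vitamin C list. Cd53, a tetraspanin of leukocytes, had 1 core of each kind under one of the strongest PU.1 peaks of all domains, with scores of 345 and 165, and was chosen for this after its values were seen. Gpr65, an acid-sensing receptor, had 1 PU.1 core, a PU.1 score of 8.78 in the untreated list and no PU.1 peak in the vitamin C list. Meis1, a partner of HOXA9, had 1 RUNX core and 13 CG pairs, and neither list placed PU.1 or Runx1 over its window. Ern1, which encodes the unfolded-protein sensor IRE1, had 16 CG pairs and neither core, and lay under a Runx1 peak with a score of 55.6 untreated and 147 with vitamin C. Junb, an AP-1 subunit, had 20 CG pairs and neither core. It lay under PU.1 peaks with scores of 25.1 and 14.5, and under a Runx1 peak of the vitamin C list only, with a score of 21.2. The scores are the authors' own, without a definition in the sources used here, and rank peaks within a list only. For a gene with several promoters in a domain, the one with the highest sum of PU.1 and Runx1 scores was shown. Peaks over the windows shown can thus follow in part from that choice.

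Across 1052 promoter windows of domain genes, of which some have several, the PU.1 core occurred in 25.4% and the RUNX core in 11.7%. In all 21262 windows of the same length these shares were 22.2% and 12.4%, and under narrower H3K4me3 peaks 21.9% and 10.5%. CG pairs numbered 16 in the median domain window and 10 in the median of all windows, while windows under narrower H3K4me3 peaks also had 16. Among domain windows under a PU.1 peak of the untreated list 35.2% held the PU.1 core, and under one of the vitamin C list 41.8%. Both values are close to those over all promoters, at 34.9% and 42.1%. A match is a run of letters and no proof of a bound site.

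The 1229 domains had a median length of 4875 bp, with quartiles of 4355 and 5856 bp. The longest measured 20244 bp and lay in Bmp2k, a kinase gene, at chr5:96997718-97017962, without touching its start site. It was followed by a domain of 18180 bp between genes, 88278 bp from Max, and by one of 17281 bp at St8sia4, a sialyltransferase gene. Meis1 had the fourth longest at 14539 bp. The 12 longest further held Atp8b4 (13659 bp), Coro2a (13489 bp), Fut8 (13070 bp), Ern1 (12323 bp), the ETS factor gene Etv6 (12223 bp), a stretch 15898 bp from the hematopoietic cofactor gene Lmo2 (11909 bp), Pcdh7 (11854 bp) and Srgn (11795 bp), which encodes the proteoglycan core serglycin of granules. Thus 8 of the 12 covered a start site, 2 lay in a gene away from it and 2 between genes.

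A start site fell inside 835 domains (67.9%). Another 299 (24.3%) lay in or over a gene without its start site, and 95 (7.73%) lay between genes. Of the domains with a start site, 663 held 1 gene, 160 held 2 and 12 held 3 or more, for 1014 genes in all. The start site was known for 857 of these genes. The other 157 had no promoter entry and were placed by either end of their gene span, so that for them a domain at the far end of the gene counts as well. Exons and introns could not be told apart with the annotation used here. Chromosome 11 carried 140 domains and chromosome X 19. Another broad domain lay within 10 kb of 143 domains and within 50 kb of 301.

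Some domains ended just short of a start site. Of the 394 without one inside, 68 had a start site within 200 bp of an end and 102 within 1000 bp, at a median distance of 94.5 bp, which brings the domains at or beside a start site to 937 (76.2%). The hematopoietic factor genes Myb, Cebpa, Fli1, Nfe2 and Stat3 were of this kind. Their domains measured 6226, 5569, 6258, 7896 and 4092 bp and stopped 52, 73, 118, 93 and 27 bp from the start. A further untreated H3K4me3 peak lay within 500 bp of 513 domains (41.7%). Joining peaks across gaps of up to 500 bp gave 2299 domains.

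Every domain overlapped an H3K4me3 peak of the vitamin C list, so the 95% exact binomial interval of the share reaches from 99.7% to 100%. Over all untreated peaks the share was 90.5%. The median domain had 97.1% of its bases under vitamin C peaks, 1091 had 90% or more, and the least covered had 56.1%. The longest vitamin C peak in a domain was 0.980 times as long as the domain in the median, with quartiles of 0.890 and 1.03. It was longer in 473 domains and shorter in 756, and within 10% of the same length in 747 (60.8%). When the vitamin C peaks of a domain were added up, the median ratio was 0.992.

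Where the longest vitamin C peak was shorter than the domain, further vitamin C peaks often covered the rest. In 341 domains (27.7%) the vitamin C list held 2 or more peaks, against 13.5% of the untreated peaks of 2000 to under 4000 bp, 6.97% of those of 1000 to under 2000 bp and 1.67% of shorter ones. A longer interval has more room for a break, and the part of that in the order was not tested. Of the 257 domains whose longest vitamin C peak was under 4000 bp, 246 still had 75% or more of their bases covered. The longest vitamin C peak was 1.5-fold or more shorter in 124 domains (10.1%, against a background of 8.79% of all untreated peaks) and 1.5-fold or more longer in 15 (1.22%, against a background of 13.9%). These lengths were chosen from the untreated side, and nothing is read from the difference from the background.

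The choice made from the other side gave the mirror image. The vitamin C list held 48385 peaks, of which 1252 measured 4000 bp or more, and all 1252 overlapped an untreated peak. The longest untreated peak was 0.982 times as long as the vitamin C peak in the median, it was shorter for 749 and longer for 503, and 357 were split into 2 or more untreated peaks. Each choice thus made the chosen library look slightly longer. In both directions 972 broad peaks had a broad partner.

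**Figure D1:**
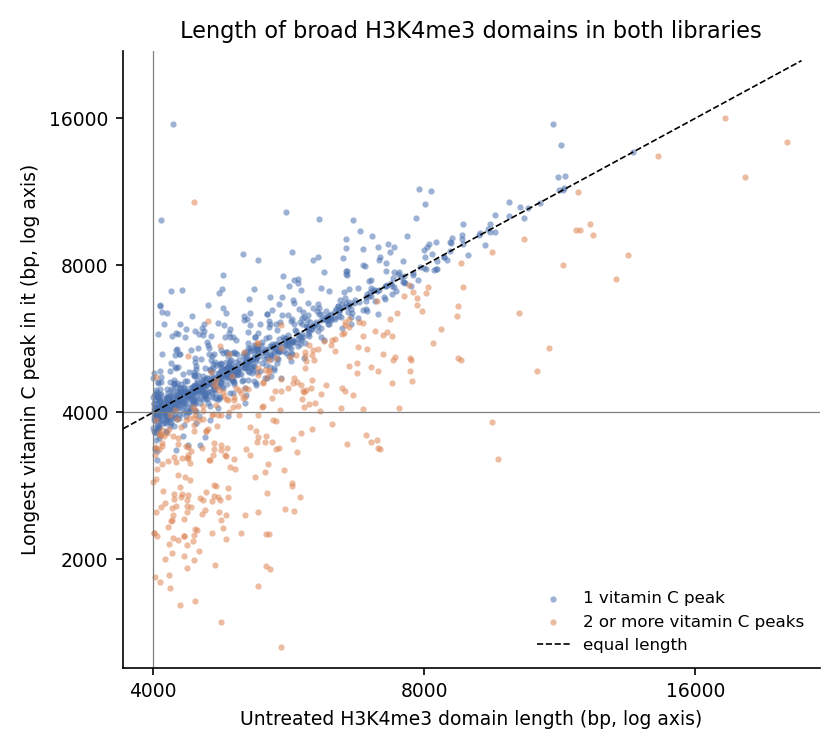
Length of each of the 1229 untreated H3K4me3 domains (x axis, bp, log axis) and of the longest vitamin C peak overlapping it (y axis, bp, log axis). Points are domains, blue with 1 vitamin C peak and orange with 2 or more, the dashed line marks equal length and the grey lines mark 4000 bp. The blue points gather along the line, and most points far below it are orange.

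The named extremes show both kinds of change. At Far1, which encodes a fatty acyl-CoA reductase, the untreated domain of 9654 bp met 5 vitamin C peaks. The longest measured 3214 bp (ratio 0.333), yet all 5 together covered 86.4% of the domain. A domain of 5554 bp on chromosome X, 321899 bp from Tex13c3, met 5 peaks of at most 1322 bp, which gave the lowest ratio of 0.238 at 74.0% covered. Il17ra, the interleukin-17 receptor gene, had 5236 bp untreated and a longest vitamin C peak of 1762 bp, with 83.7% covered. The remaining 3 of the 6 lowest ratios, between 0.313 and 0.362, lay between genes nearest to St8sia4, Lrrc8c and Osbpl8. At the other end, the second domain of the phosphatase gene Ptpre, 4205 bp long and 167 bp from a first one of 11128 bp, fell under a single vitamin C peak of 15576 bp (ratio 3.70). Glipr1 (2.44), Dapp1 (2.43), Slc49a4 with Hspbap1 (1.83), Rpl13a (1.69) and the hematopoietic transcription factor gene Tal1 (1.68) followed. All 6 domains, that of Ptpre included, shared their vitamin C peak with at least 1 other untreated peak. In Tal1 the domain of 5039 bp lay in the gene away from its start site and met a vitamin C peak of 8455 bp.

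**Figure D2:**
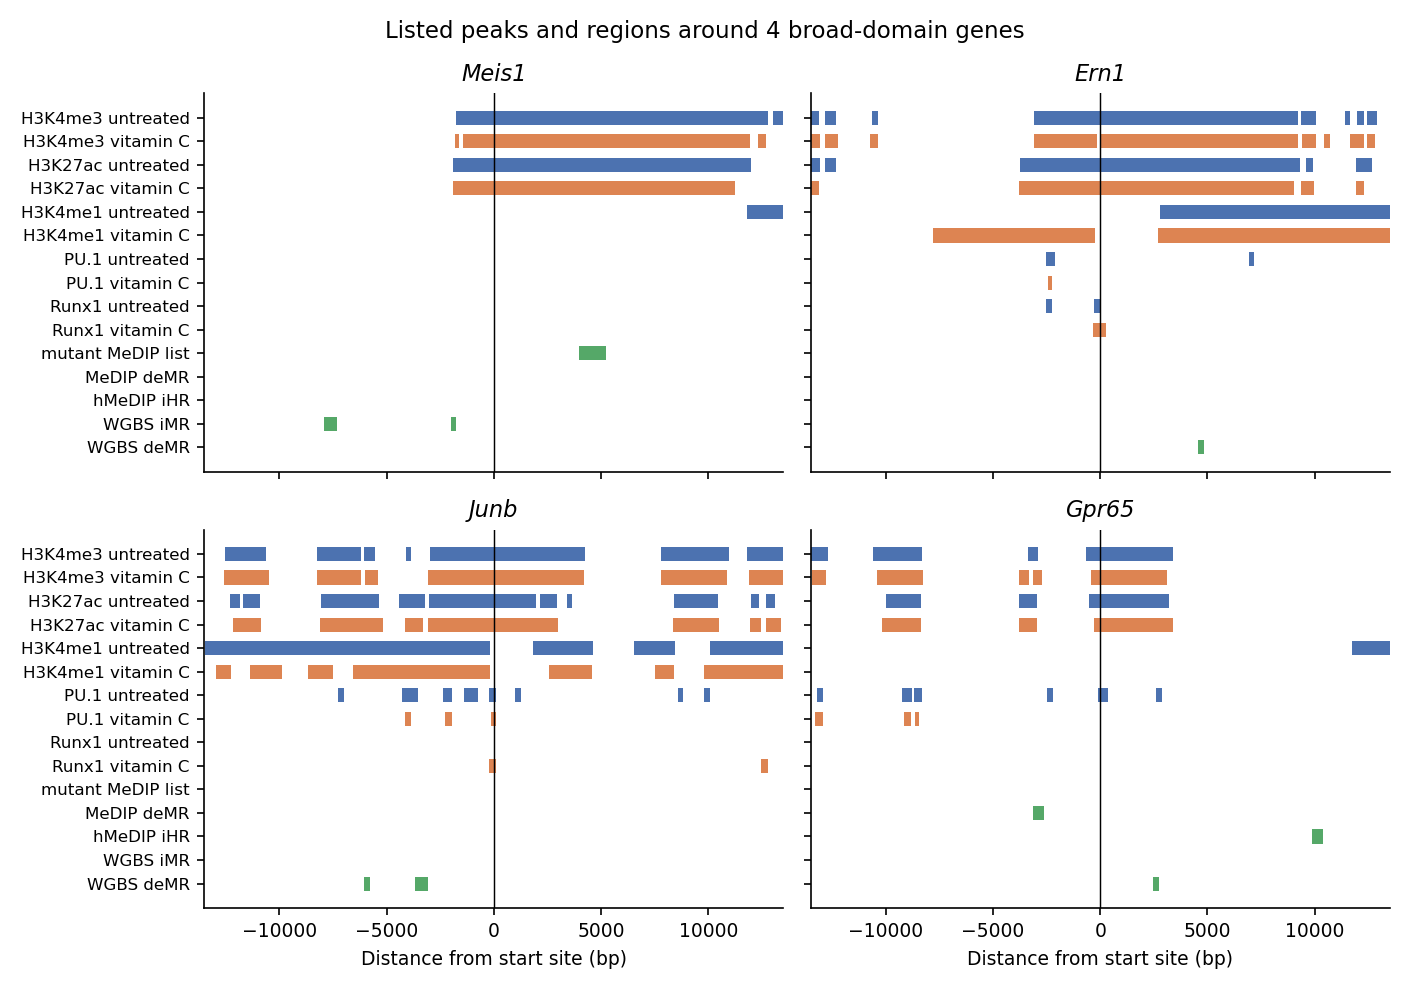
Peaks and regions listed around the start sites of Meis1, Ern1, Junb and Gpr65, with distance from the start site in bp on the x axis and positive values into the gene. Rows are lists, blue for untreated, orange for vitamin C and green for methylation regions. The Ern1 domain, continuous from -3104 to 9219 bp in the untreated list, breaks between -165 and -34 bp with vitamin C, while Junb keeps a single block.

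Genes under broad domains were among the more highly expressed. Their median level was 34.3 RPKM in both libraries (972 genes in the RNA table). Genes whose longest start-site peak measured 2000 to under 4000 bp had a median of 16.5 RPKM untreated, those of 1000 to under 2000 bp 7.06 RPKM and those under 1000 bp 0.186 RPKM. RPKM is a level per gene length, in reads scaled to gene length and to library size. In these bulk libraries, fewer cells of a type and less RNA per cell cannot be told apart. Within the domains, length and level were weakly related, with a Spearman rho of 0.21 over 671 domains with 1 measured gene, all from the same pair of libraries.

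**Figure D3:**
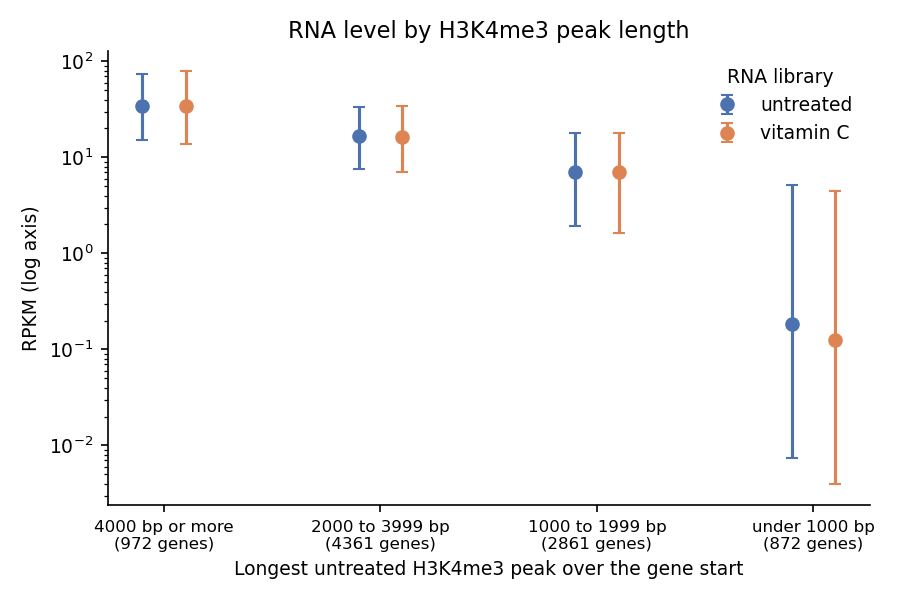
RNA level (RPKM, log axis) of genes grouped by the length of their longest untreated H3K4me3 peak over the start site. Points are medians over genes, bars reach from the lower to the upper quartile over genes, blue for the untreated and orange for the vitamin C library. The median falls from 34.3 RPKM at 4000 bp or more to 0.186 RPKM under 1000 bp in the untreated library.

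Of the 972 domain genes, 956 reached 1 RPKM in 1 or both libraries, and fold changes were taken on these as (RPKM + 0.5) with vitamin C over (RPKM + 0.5) untreated. With vitamin C, 21 (2.20%, interval 1.36% to 3.34%) were 2-fold or more higher, against a background of 2.38% of 10436 genes. Another 18 (1.88%, interval 1.12% to 2.96%) were 2-fold or more lower, against a background of 1.92%. The median log2 change was -0.02 for domain genes, -0.05 for genes under narrower peaks and -0.04 for all genes. Together these 39 genes were 4.08% of the domain genes, against a background of 4.29%. The shares were near the background in both directions. The authors' deposited table of higher genes names 450 genes, of which 43 were domain genes (9.56%), and that of lower genes names 221, of which 21 were domain genes (9.50%). Domain genes were 9.16% of all measured genes, so both shares were near that background.

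The largest rise among domain genes was that of Osm, which encodes the cytokine oncostatin M. It went from 11.6 to 95.8 RPKM, 8.23-fold with a counting interval of 7.85 to 8.63. Its domain measured 4130 bp untreated and 3907 bp with vitamin C, and neither list placed PU.1 or Runx1 in it. Zfp36, which encodes a protein that destabilises cytokine messages, went from 15.5 to 106.3 RPKM (log2 change 2.74). Its domain of 6278 bp met a vitamin C peak of 6055 bp. The chemokine gene Ccl4 went from 21.7 to 113.1 RPKM, and its neighbour Ccl3 in the same domain of 4499 bp from 246.3 to 673.4 RPKM. Cd69, a lectin of activated leukocytes, went from 34.1 to 153.0 RPKM (log2 change 2.15).

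Ero1l, an endoplasmic reticulum oxidase and a target of the hypoxia response, went from 145 to 584 RPKM, and had by far the most reads of the group. Trib1, a pseudokinase gene, stood at 1.97 and 8.56 RPKM, and Junb at 42.2 and 139.7 RPKM. The core histone gene Hist1h2bg was listed at 8.44 and 36.9 RPKM, but near-identical histone genes can share its reads, so its value is uncertain. Polyadenylated RNA also holds little of most core histone messages. The domains of these 8 genes had length ratios from 0.946 to 1.34, and 5 of the 8 lay within 5% of equal length.

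On the lower side stood Gpr65, from 11.8 to 0.578 RPKM, 0.0487-fold with a counting interval of 0.0398 to 0.0591. Its domain of 4060 bp met a vitamin C peak of 3549 bp and held 2 PU.1 peaks in the untreated list and none in the vitamin C list. Mpo went from 796 to 131 RPKM (log2 change -2.60), under a domain of 4270 bp that met a peak of 4079 bp. Prtn3, encoding proteinase 3 of the same granules, went from 285 to 107 RPKM (log2 change -1.41). Gfi1, a repressor needed for granulocytes, went from 52.0 to 18.4 RPKM while its domain went from 5939 to 6329 bp. C2cd4a went from 99.0 to 33.8 RPKM, Plppr3 from 37.5 to 14.3 RPKM, the organic anion transporter gene Slco3a1 from 9.77 to 3.76 RPKM and the predicted gene Gm1110 from 10.1 to 0.985 RPKM. The domain of Gpr65 thus kept 87.4% of its bases under the vitamin C peak at a far lower RNA level.

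**Figure D4:**
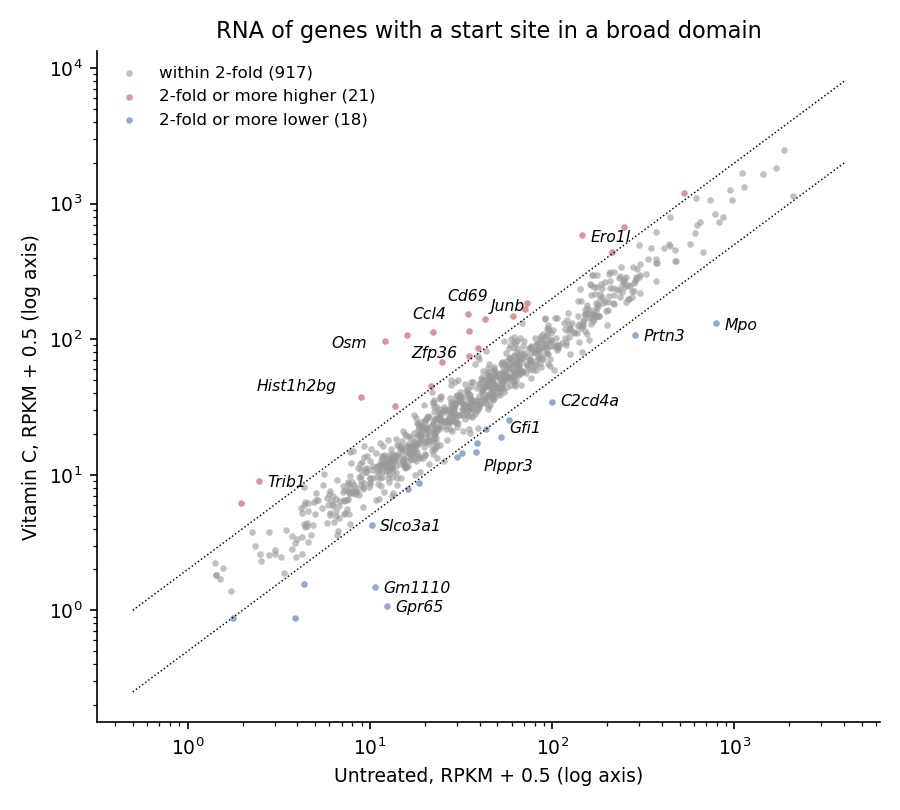
RPKM + 0.5 of the 956 measured domain genes untreated (x axis) and with vitamin C (y axis), both on log axes. Points are genes, red for the 21 that were 2-fold or more higher, blue for the 18 lower and grey for the 917 others, dotted lines mark 2-fold, and the 16 genes named by rule are labelled. Osm and Zfp36 lie farthest above the band, Gpr65 and Gm1110 farthest below it.

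Domain length moved little with RNA. The length ratio had a median of 1.00 over the 21 higher genes (quartiles 0.964 and 1.02), 0.952 over the 18 lower genes (0.876 and 1.05) and 0.980 over the 917 others (0.911 and 1.02). These ranges overlap. Over 671 domains with 1 measured gene, Spearman's rho between the log2 RPKM change and the log2 length ratio was 0.10, a description over points from the same 4 libraries.

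Of the H3K4 methyltransferases and their subunits, 4 of 16 had a domain: Kmt2d (6640 bp), Hcfc1 (6252 bp), Kdm6a (4760 bp) and Wdr5 (4016 bp). All 4 were within 2-fold, with log2 changes from -0.41 for Kmt2d to -0.08 for Kdm6a. Setd1b, a further member, started 48 bp from a domain of 7207 bp and was at 11.7 and 10.4 RPKM. Of 7 H3K4 demethylase genes only Kdm5a had one (4262 bp, 17.4 and 14.7 RPKM), and none of 14 genes for H3K4me3 readers and promoter CG-binding proteins did. Among 11 genes of cytosine methylation the domain genes were Tet2 and Idh1. Tet2, which oxidises methylcytosine, had 12.8 and 6.45 RPKM, in the same order, under a domain of 4545 bp. Idh1 was at 76.2 and 68.3 RPKM under one of 4808 bp. The mutant enzyme came from a vector, and its reads cannot be told apart here from those of the mouse gene.

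Of 39 myeloid and hematopoietic transcription factor genes, 10 had a start site in a domain. Gata2 had the longest after Meis1 and Etv6, at 10747 bp, followed by Erg (10321 bp), Runx1 (8535 bp), Lyl1 (7444 bp), Gfi1 (5939 bp), Spi1 (4841 bp), Ikzf1 (4549 bp) and Stat5b (4177 bp). Gfi1 alone of these 10 passed 2-fold. Among all 31 measured members of the list, 2 were 2-fold or more higher and 2 lower. Untreated and with vitamin C, Lyl1 was at 201 and 127 RPKM, Spi1 at 105 and 83.0 RPKM, Gata2 at 91.4 and 142 RPKM, Etv6 at 90.6 and 90.1 RPKM and Runx1 at 52.5 and 66.3 RPKM. Meis1 was at 18.3 and 10.0 RPKM while its domain of 14539 bp met a longest vitamin C peak of 13409 bp. Another 6 members had a domain within 1 kb of the start, the 5 named above and Zfpm1. Of 17 stem and progenitor genes, 4 had a domain, Cd34 (5374 bp, 298.5 and 498.0 RPKM), Sox4 (5284 bp, 38.8 and 21.5 RPKM), Gata2 and Meis1. Over the whole list 0 of 12 measured members were 2-fold or more higher and 3 lower. The lower ones, Kit, Flt3 and Hoxa9, had no start site in a domain. None of the 11 Hoxa genes had one, Hoxa9 included, and reads of a HOXA9 vector cannot be told apart here from those of the mouse gene.

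Domains held 5 of the 19 genes listed for cytokine receptors and signalling. The receptor subunit genes Csf2rb and Csf2rb2, closely related copies whose reads can be shared, were at 347 and 160 RPKM untreated and at 470 and 253 RPKM with vitamin C. The kinase gene Pim1 was at 238 and 342 RPKM, the survival gene Mcl1 at 81.8 and 91.0 RPKM, and Osm was the member past 2-fold. With or without a domain, 2 of 17 measured members of the list were 2-fold or more higher and 1 lower. Bcl2 (31.6 and 42.5 RPKM) started 50 bp from a domain of 6476 bp. Cish (44.4 and 49.0 RPKM) started 176 bp from one of 6550 bp. Of 25 immediate early genes 7 had a domain, and 4 of the 7 were 2-fold or more higher, Zfp36, Junb, Ier2 (60.3 and 147.8 RPKM) and Atf3 (1.46 and 5.72 RPKM). Over the whole list 17 of 24 measured members were, so this holds for the list with or without a domain. The other 3 were Mcl1, Fosl2 (21.8 and 24.1 RPKM) and Dusp5 (44.6 and 56.7 RPKM). Klf6, whose start lay 37 bp outside its domain of 4179 bp, was at 29.4 and 72.6 RPKM.

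Of 17 hypoxia and HIF target genes 7 had a domain, and Ero1l was the only one of them past 2-fold. Over the whole list 8 of 17 measured members were 2-fold or more higher and 0 lower. Ldha, lactate dehydrogenase, was at 371.5 and 617.6 RPKM, Pgk1 at 327.6 and 301.1 RPKM, Hk2 at 57.8 and 85.5 RPKM, Egln3 at 55.3 and 69.0 RPKM, Kdm3a at 39.7 and 46.9 RPKM, and Vegfa at 21.3 and 40.2 RPKM. Of 8 primary granule genes 6 had a domain, of which Mpo and Prtn3 were 2-fold or more lower. No other member of that list passed 2-fold. Ctsg, cathepsin G, had the highest level at 2101 and 1136 RPKM under 8798 bp. Srgn was at 736 and 1057 RPKM, Cst7 at 372.1 and 362.5 RPKM and Ms4a3 at 267.9 and 244.9 RPKM. The start of Elane, neutrophil elastase, lay 795 bp from the Prtn3 domain, at 47.5 and 38.6 RPKM.

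Of 14 monocyte and macrophage genes 4 had a domain. Cd68, a lysosomal glycoprotein, went from 34.3 to 113.6 RPKM, and the chemokine receptor gene Ccr2 from 38.9 to 85.4 RPKM, both past 2-fold. Ly6c2 was at 1122 and 1331 RPKM and Adgre1 at 165 and 298 RPKM, both within it. Members without a domain went in both directions. Of these, Cd14 (16.26 and 37.99 RPKM) and F13a1 (4.64 and 20.9 RPKM) were 2-fold or more higher. Over the whole list 4 of 12 measured members were 2-fold or more higher and 2 lower. The lower ones were Lyz2 (111.3 and 53.0 RPKM) and Irf8 (8.58 and 2.58 RPKM). Cpa3 and Gata2 were the members among 9 mast cell and basophil genes, Hbb-bt (966.9 and 1071 RPKM) the one among 8 erythroid genes, and no B or T cell gene had a domain. Of 12 housekeeping genes 4 did, Pgk1, Gapdh, Ppia (147 and 127 RPKM) and Tbp. Gapdh, a glycolysis enzyme as well, was past 2-fold, from 211.7 to 440.5 RPKM, so it is no constant reference here.

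Other histone marks also lay on the domains in both libraries. H3K27ac peaks lay on 99.7% of domains untreated and 99.6% with vitamin C, and covered 79.5% and 79.8% of their bases. A longer interval meets a peak more easily, so the H3K27ac shares are not read against other H3K4me3 peaks. H3K4me1, more typical of enhancers, lay on 81.1% of domains untreated and 58.8% with vitamin C, and covered 49.5% and 33.4% of bases. H3K4me1 was in the untreated list only at 394 domains (32.1%, against a background of 32.7% of all untreated H3K4me3 peaks) and in the vitamin C list only at 120 (9.76%, against 12.5%). The H3K4me1 lists held 57750 and 45657 peaks in all.

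PU.1 peaks lay in 992 domains (80.7%, interval 78.4% to 82.9%) in the untreated list and in 639 (52.0%, interval 49.2% to 54.8%) in the vitamin C list. The lists themselves held 61611 and 23522 peaks, of which 1792 and 898 had their midpoint in a domain. PU.1 was found in the untreated list only at 363 domains (29.5%, against a background of 18.6% of all untreated H3K4me3 peaks) and in the vitamin C list only at 10 (0.814%, against 0.538%). Per Mb there were 270 PU.1 midpoints untreated and 135 with vitamin C, against 254 and 127 in peaks of 2000 to under 4000 bp and 295 and 147 over all H3K4me3 peaks. Of 1792 PU.1 peaks with a midpoint in a domain, 840 (46.9%, interval 44.5% to 49.2%) were also in the vitamin C list. Shorter H3K4me3 peaks had between 47.0% and 48.7%, and PU.1 peaks outside H3K4me3 32.0%.

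The domain near Max and that of Rhog, a small GTPase gene, held the most PU.1 peaks, 7 each untreated and 2 each with vitamin C. St8sia4, Ier2 and Akna held 6 each untreated and 2, 1 and 2 with vitamin C. The 5 strongest PU.1 peaks of domains by untreated score, named after their values were seen, lay at Zyx (514), Slc43a2 (358), Cd53 (345), Vgll4 (313) and Fgd2 (270). All 5 were also in the vitamin C list, where Zyx again scored highest (190).

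Runx1 went the other way. Its peaks lay in 331 domains (26.9%, interval 24.5% to 29.5%) untreated and in 502 (40.8%, interval 38.1% to 43.7%) with vitamin C, from lists of 3908 and 6250 peaks. Runx1 was in the vitamin C list only at 220 domains (17.9%, against a background of 7.53%) and in the untreated list only at 49 (3.99%, against 1.34%). Per Mb there were 46.9 midpoints untreated and 74.3 with vitamin C, against 43.1 and 74.0 over all H3K4me3 peaks. Peaks of 2000 to under 4000 bp had more, at 58.6 and 108, and those of 1000 to under 2000 bp had 44.6 and 74.9. Of the 311 untreated Runx1 midpoints in domains 80.1% were also in the vitamin C list, and of the 493 with vitamin C 49.7% were in the untreated list. Both shares were near those of all Runx1 peaks, at 81.8% and 50.7%. In H3K4me3 peaks of 2000 to under 4000 bp they were 87.2% and 46.2%.

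**Figure D5:**
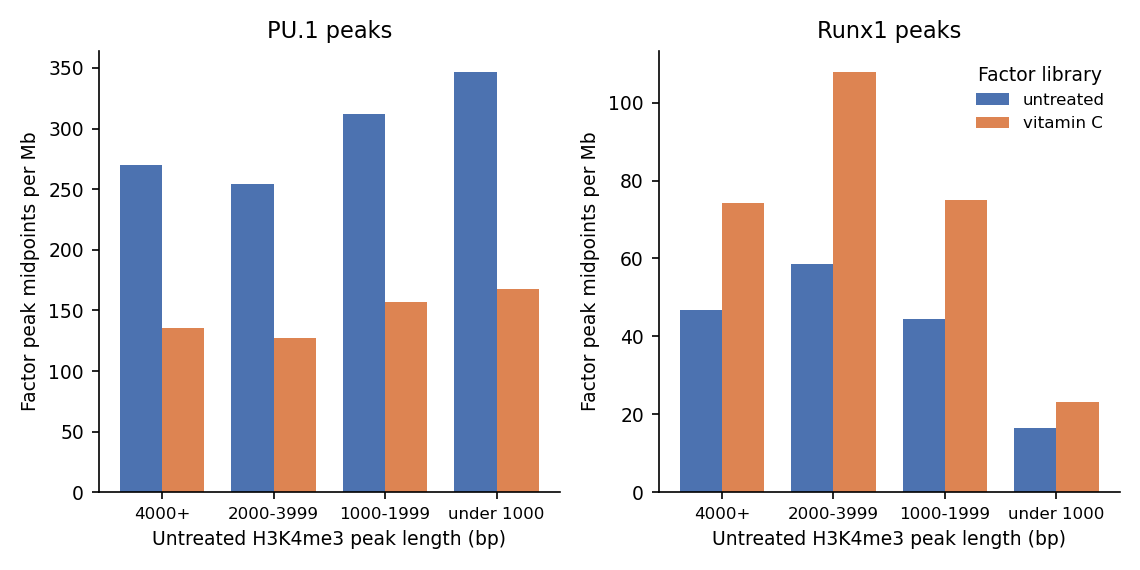
Midpoints of PU.1 (left) and Runx1 (right) peaks per Mb of untreated H3K4me3 peaks, by H3K4me3 peak length in bp on the x axis. Bars are single libraries, blue untreated and orange vitamin C. In peaks of 4000 bp or more PU.1 stands at 270 and 135 per Mb and Runx1 at 46.9 and 74.3 per Mb.

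The factors also sat at different places within a domain. In domains with a start site, 77.7% of Runx1 midpoints untreated and 83.1% with vitamin C lay within 500 bp of it, against 21.7% of the bases. For PU.1 the shares were 36.8% and 33.2%. The median distance to the start site was 112 bp untreated and 91.5 bp with vitamin C for Runx1, and 976 and 1122.5 bp for PU.1. Ptpre and Tubb5 held the most Runx1 peaks untreated, 3 each, with 0 and 2 in the vitamin C list. Ern1, Gtpbp1 and Foxo3 held 2 each, with 1, 2 and 2. The strongest Runx1 peak of domains lay at Klf16, with a score of 76.8 untreated and 176 with vitamin C.

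RNA changes were also set beside the factor lists. Of the 21 higher genes, 14 had PU.1 in both lists in their domain, 6 in the untreated list only and 1 in neither. Of the 18 lower genes, 2 had it in both lists, 10 in the untreated list only and 6 in neither. Of the 917 others, 440 (48.0%) had it in both and 287 (31.3%) in the untreated list only. Under untreated H3K4me3 peaks of 2000 to under 4000 bp, 21 of 52 higher genes and 10 of 46 lower genes had PU.1 in both lists, against 24.5% of the rest. There PU.1 was in the untreated list only at 10 of the 46 lower genes (21.7%) and 9 of the 52 higher genes (17.3%), against 26.0% of the rest. The lower genes with PU.1 in the untreated list only included Gpr65, Gfi1, Plppr3 and Slco3a1. Mpo and Prtn3 were the 2 with PU.1 in both. This is a description of few genes in single libraries. Runx1 was in the vitamin C list only at 5 of the 21 higher genes (23.8%), 2 of the 18 lower genes (11.1%) and 191 of the 917 others (20.8%). It was in neither list at 10 higher genes (47.6%), 13 lower genes (72.2%) and 444 others (48.4%). Under peaks of 2000 to under 4000 bp the shares in neither list were 59.6%, 80.4% and 52.0%. The lower genes had the largest share there too, so this is not particular to domains. The higher genes lay above the others there, but not in domains.

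The methylation files list regions without values, and no source used here gives their directions, thresholds or compared libraries, so the names deMR, iMR and iHR are only the lists' own. A region of any of the 6 lists lay in 235 domains (19.1%, interval 17.0% to 21.4%, against a background of 7.34% of all untreated H3K4me3 peaks). Per base the order differs by list. Bisulfite deMR midpoints numbered 16.0 per Mb of domain, against 20.8 over all H3K4me3 peaks, and bisulfite iMR midpoints 4.82 against 10.8. Hydroxymethylation iHR midpoints numbered 12.96 per Mb, against 10.3.

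Bisulfite deMRs lay in 102 domains (8.30%, interval 6.82% to 9.98%), iHRs in 79 (6.43%, interval 5.12% to 7.95%), MeDIP regions of the list named for the mutant in 36, bisulfite iMRs in 30, MeDIP deMRs in 21 and MeDIP iMRs in 10. In the order named, the lists held 6496, 7829, 4182, 8374, 3789 and 4564 regions in all. Both a bisulfite deMR and an iHR lay in 18 domains. A longer peak has more room for a region, so these counts are a description. Nothing is read from them against other H3K4me3 peaks. In domains with a start site, 6.00% of 50 bisulfite deMR midpoints, 6.52% of 46 iHR midpoints and 5.00% of 20 bisulfite iMR midpoints lay within 500 bp of it, against 21.7% of bases. For the list named for the mutant it was 21.7% of 23, for MeDIP iMRs 1 of 6 and for MeDIP deMRs 0 of 10. Within 500 bp of a domain's edge lay 24.5% of bisulfite deMR, 29.1% of iHR, 31.6% of MeDIP deMR and 40.0% of MeDIP iMR midpoints, against 18.5% of bases. The bisulfite iMRs (12.5%) and the list named for the mutant (11.4%) were below that share.

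Coro2a, a coronin gene, Slc22a4, a carnitine-family transporter gene, Igfbp7 and Ankrd63 had the most, 4 regions each. The Coro2a domain of 13489 bp held 2 MeDIP deMRs, 1 iHR and 1 bisulfite deMR. Slc22a4 held 2 iHRs, 1 MeDIP iMR and 1 region of the list named for the mutant, at 15.7 and 11.2 RPKM. Igfbp7 held 3 iHRs and 1 bisulfite deMR. The domains with 3 regions named by rule were a second one in Dapp1, with 3 bisulfite deMRs, one 480 bp from Rasgef1c, also with 3, and those of Exoc3l4 and Abr. None of 56 measured genes of domains with an iHR passed 2-fold in either direction, with a median log2 change of -0.02. Of 61 measured genes of domains with a bisulfite deMR, 1 was 2-fold or more higher and 2 lower. Past 2-fold were 4.08% of all domain genes and 4.29% of all genes, so counts this low are near that background. At Gpr65 a bisulfite deMR lay from 2449 to 2744 bp inside the gene from its start, partly under the second PU.1 peak of the untreated list (2620 to 2861 bp), and Meis1 carried a region of the list named for the mutant from 3970 to 5219 bp.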

How the data were processed

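ChIP-seq peaks, RNA-seq, MeDIP, hMeDIP and bisulfite region lists of 18 of 24 samples were used. Per the submitters' processing notes, mm10 was the build and MACS2 2.1.0.2, BWA, Picard, Novoalign 3.02.08, CASAVA 1.8.2 and SAMtools (0.1.16, 0.1.8, 0.1.2) were the tools, with no role given. How reads were counted, and on which annotation, is not stated. The authors deposited a whole-number read count and an RPKM per gene for RNA. Histone peaks carry a p-value or q-value of at most 1e-05 as deposited, which of them is not stated. PU.1 and Runx1 peaks carry a score that the authors deposited without a definition. Whether the histone lists count from 0 or 1 is not stated.

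Intervals were joined in Python 3.11.15 (numpy 2.4.6, pandas 2.3.3, scipy 1.17.1, matplotlib 3.10.9). An overlap was 1 bp, and 1159, 259, 139 and 337 repeated PU.1 and Runx1 intervals were dropped. Genes came from RefSeq on GRCm38.p6. Of 22371 RNA genes 20243 were linked by symbol. The log2 change was taken on RPKM + 0.5 for genes with 1 RPKM or more in 1 or both libraries, with 2-fold as the limit. Shares have exact Clopper-Pearson intervals and RPKM ratios exact binomial ones at 95%, which cover counting error only. The interval and fold steps were tested on simulated data.

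The members, the 16 gene lists and the alternatives were chosen with earlier results of these data known. Named were the 12 longest domains, the 6 lowest and 6 highest length ratios, the 8 most positive and 8 most negative log2 changes at 5 RPKM or more, the 5 domains with most PU.1 and with most Runx1 peaks, the 8 with most methylation regions, and up to 6 members a gene list by untreated RPKM. Cd53, Klf16, the strongest PU.1 peaks, Ccl3 and members named beyond 6 or beside a domain were chosen after their values were seen. The alternatives were other length limits, joined peaks, gene placements, pseudocounts, filters and overlap rules.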

Additional observations from a re-analysis of the deposited data

How the results depend on the processing

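No paired analysis was possible because each group holds 1 library. The number of domains was 3078 at 3000 bp, 570 at 5000 bp and 2299 with peaks joined. The median length ratio of 0.980 was 0.992 with summed peaks, 1.00 from first start to last end, 0.990 with peaks joined and 1.02 for members chosen in the vitamin C list, so its side of 1 follows the choice of members. Higher and lower genes numbered 70 and 52 at 1.5-fold (7.32% and 5.44%, against 6.21% and 6.64% of all genes), 34 and 33 at 3000 bp and 10 and 7 at 5000 bp. Other length limits select other numbers of genes, so the counts at 3000 and 5000 bp are not read against the background. The other settings, among them the pseudocounts and filters, kept both counts within 1.5 times. With genes placed by the start-site table alone, a setting chosen after seeing the data, they were 14 and 15 among 857 placed genes. The main setting had 21 and 18 among 1014 placed genes, so some of these rest on genes placed by a gene end. No share of measured genes was taken at this setting, so it is not read against the background.

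With PU.1, shares untreated and with vitamin C were 58.0% and 38.1% for the stronger scores, 71.2% and 43.8% at 3000 bp and 86.0% and 57.9% at 5000 bp. With Runx1 they were 13.1% and 21.6% for the stronger scores, 23.4% and 35.6% by midpoint, and 23.9% untreated at 3000 bp. PU.1 remained lower and Runx1 higher with vitamin C in each of these pairs. For methylation, the list named for the mutant gave 2.05% at 3000 bp, MeDIP deMR 2.77% within 1 kb and 2.98% at 5000 bp, iHR 8.71% within 1 kb and 4.81% at 3000 bp, and bisulfite deMR 11.5% within 1 kb, 6.21% at 3000 bp and 11.9% at 5000 bp. The ChIP and methylation lists give no depth, so a peak missing from a list is not shown to be absent from the cells. No difference between conditions has a replicate check.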
